A study of Mus musculus with 4 samples.

Results

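The miR-30 family of microRNAs was examined in mouse sperm through its 6 hairpins mmu-mir-30a, mmu-mir-30b, mmu-mir-30c-1, mmu-mir-30c-2, mmu-mir-30d and mmu-mir-30e, taken by name from the miRNA class of the deposited tables. They are 6 of the 605 hairpins listed there and of 2150 small RNA features in all. Sperm was taken from the tail of the epididymis (cauda), where it is stored, in adult C57BL/6 mice, and each of the 4 libraries was made from 1 mouse. A pair of mice came from the breeding labelled Original cross and a pair from that labelled Extra cross to wildtype, and the libraries are called original-cross and extra-cross replicates 1 and 2. The study's title concerns a LoxP site, the short recognition sequence of Cre recombinase, that is or is not silenced through sperm. Which cross was susceptible is not stated in the labels, nor is an allele or transgene of either.

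A microRNA is cut from a hairpin in the nucleus by Drosha and in the cytoplasm by Dicer, and the mature strand guides an Argonaute protein to messenger RNAs that pair with its seed, bases 2 to 8. The miR-30 family is known for restraint of the transition of epithelial to mesenchymal cells, in part through Snai1, and miR-30a and miR-30c were reported among the microRNAs altered in sperm of stressed fathers. By their 5p sequences miR-30a, miR-30d and miR-30e form one group and miR-30b and miR-30c another.

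For 4 of the 6 hairpins the mature sequences were found in the RefSeq microRNA table of GRCm38.p6. They are shown because the values that follow are described by sequence group. Those of mir-30b and mir-30d were not found there, so the group of these 2 is taken from the description of the family above. The seed is in capitals.
mmu-miR-30a-5p: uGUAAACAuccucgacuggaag
mmu-miR-30e-5p: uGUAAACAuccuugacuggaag
mmu-miR-30c-5p: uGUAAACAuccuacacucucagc
mmu-miR-30a-3p: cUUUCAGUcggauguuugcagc
mmu-miR-30e-3p: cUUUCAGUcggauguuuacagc
mmu-miR-30c-1-3p: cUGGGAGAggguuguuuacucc
mmu-miR-30c-2-3p: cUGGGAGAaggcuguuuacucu
The 3 distinct 5p sequences share 1 seed and differ only after it. Counted from 1 at the 5′ end, with the base of miR-30a-5p first, miR-30e-5p differs by C13U alone, and miR-30c-5p differs by C13A, G14C, G18C, G19U and A20C over the 22 bases compared. The 3p arms carry 2 further seeds, one in miR-30a-3p and miR-30e-3p (which differ by G18A) and the other in both miR-30c 3p arms. The tables give 1 value per hairpin, so the 5p and 3p arms cannot be told apart here. The 5p seed also occurs in miR-384-5p and the 3p seed of miR-30c in miR-6958-5p; neither hairpin was analysed here.

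The 6 hairpins lie in 3 pairs on the genome (GRCm38.p6), and each pair holds 1 hairpin of either sequence group. On chromosome 1, mir-30a (chr1:23272269-23272339, outside other annotated genes) and mir-30c-2 (chr1:23291701-23291784, in an exon of the long noncoding RNA Gm27028) lie 19361 bases apart on the plus strand. On chromosome 15, mir-30b (chr15:68337415-68337510, in an exon of the noncoding Gm26621) and mir-30d (chr15:68341208-68341289, in exons of the long noncoding RNA Gm20732 and of Gm37296) are 3697 bases apart on the minus strand. On chromosome 4, mir-30c-1 (chr4:120769534-120769622) and mir-30e (chr4:120772606-120772697) are 2983 bases apart on the minus strand, both in introns of Nfyc, which encodes a subunit of the CCAAT-binding factor NF-Y.

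Values are in RPM, read values that the authors scaled to a library total. For the miRNA class the scale rests on 632859 to 4205692 reads a library, judged from the value of 1 read in that class. The class summed to 275809 and 441544 RPM in replicate 1 of the original and extra cross and to 117322 and 140437 RPM in replicate 2, with mir-10a and mir-10b at 46.5% to 59.4% of it. The replicates were deposited as 2 tables, each with 1 library of either cross. As a check of the labelled cell type, the 7 sperm transcripts (such as Prm1 and Odf1) summed to 6.17 RPM or less in the RefSeq class of every library, so that mRNA fragments say little about cell type. The RefSeq class of original-cross replicate 1 may be on another scale, as set out below. Of the germ-cell microRNAs, mir-34c was at 707 to 1828 RPM and mir-34b at 40.4 to 108 RPM, with mir-449a and mir-449c at 4.74 RPM or less. Their sum, 749 to 1923 RPM, was in every library below that of microRNAs of epididymal epithelium (2055 to 10408 RPM). It was also below that of smooth muscle and stroma microRNAs (3382 to 8547 RPM), so these levels do not settle the cell type either.

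The most abundant hairpin was mmu-mir-30a, here mir-30a, at rank 36 of the 605 by mean RPM. It stood at 561 and 699 RPM in original-cross replicates 1 and 2 and at 652 and 1271 RPM in extra-cross replicates 1 and 2. Extra-cross replicate 2 was the highest and original-cross replicate 1 the lowest, and the crosses overlapped, since extra-cross replicate 1 lay below original-cross replicate 2.

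The near relative mmu-mir-30d was measured at 144 and 250.2 RPM in the original-cross mice and at 179 and 299.8 RPM in the extra-cross mice. Here too the replicate 2 libraries were the higher ones in either cross, and the crosses overlapped. For mmu-mir-30e the values were 71.1 and 87.0 RPM against 89.9 and 155 RPM. It was the only one of the 6 hairpins whose crosses did not overlap, with the extra cross higher. The nearest values of the crosses were 87.0 and 89.9 RPM, and the latter had a counting interval of 75.6 to 106 RPM (95%, exact Poisson). The count holds as deposited only: it was 3 of 6 under median-ratio scaling (mir-30a, mir-30b and mir-30e, with 25.7% of tested hairpins) and 0 of 6 under scaling to the sum of the 5 small RNA classes (11.2%) or to the miRNA class (10.7%). Of all 206 tested hairpins 11.7% had such non-overlapping values with the extra cross higher (4.47% of all 760 tested small RNA features), and 6.31% and 26.8% had them with the extra cross lower, beside 1 of 6 here, which is near the background.

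The value of mir-30e may not belong to it alone. The hairpin mir-30f is annotated at the same position on the plus strand, and its values were identical to those of mir-30e in all 4 libraries. The sources used here do not give how reads were assigned between them. The name mir-30f was noticed after the values were seen, and it is not counted as a member.

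The other sequence group had its lower values in the replicate 2 libraries. Hairpin mmu-mir-30b was at 373 and 294 RPM in original-cross mice, replicate 1 first, and at 497 and 292 RPM in extra-cross mice. Of the 2 copies that give the same miR-30c-5p, mmu-mir-30c-1 was at 349 and 204 RPM in original-cross mice and at 497 and 194 RPM in extra-cross mice. The other, mmu-mir-30c-2, was at 406 and 214 RPM in original-cross mice and at 554 and 207 RPM in extra-cross mice. In all 3 hairpins extra-cross replicate 1 was the highest library and extra-cross replicate 2 the lowest, so the extra-cross values lay on either side of the original-cross ones.

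The 2 mir-30c copies share reads. In extra-cross replicate 1 they came to 773.5 and 862.5 reads and in extra-cross replicate 2 to 816.5 and 870.5, with the fraction in both copies at once, as when 1 read is divided between them. Their difference was a whole number of reads in each library, from 19 to 89, always in favour of mir-30c-2. The copies summed to 755 and 418 RPM in original-cross mice and to 1050.2 and 401 RPM in extra-cross mice. That sum was above the value of mir-30a in both replicate 1 libraries, with mir-30a at 0.743 and 0.621 times the mir-30c sum. In replicate 2 mir-30a stood at 1.67 and 3.17 times the mir-30c sum. Hairpin values do not separate the arms, so they do not rank the mature products of the family.

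**Figure D1:**
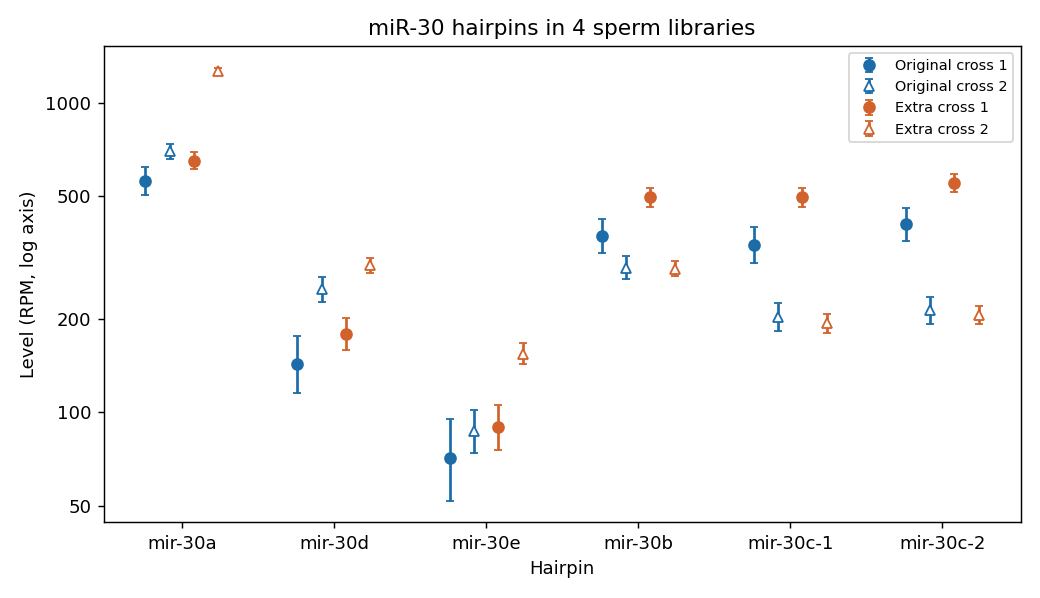
Level of each miR-30 hairpin (RPM, log axis) in the 4 libraries, with blue for the original cross, orange for the extra cross, filled circles for replicate 1 and open triangles for replicate 2. Bars are 95% exact Poisson intervals of the implied reads and cover counting error only. In mir-30a, mir-30d and mir-30e the triangles lie above the circles of the same colour, and in mir-30b, mir-30c-1 and mir-30c-2 they lie below.

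In order of mean level the hairpins ran mir-30a, mir-30b, mir-30c-2, mir-30c-1, mir-30d and mir-30e, from 796 to 101 RPM. Neighbours in that order were not always apart. Hairpin mir-30a exceeded mir-30b in 4 of 4 libraries, mir-30c-2 exceeded mir-30c-1 in 4 and mir-30d exceeded mir-30e in 4. In contrast mir-30b exceeded mir-30c-2 in only 2 of 4, and mir-30c-1 exceeded mir-30d in 2 of 4. Hairpins differ in length, from 71 bases for mir-30a to 96 for mir-30b, and per 100 bases of hairpin the mean levels were 1121 RPM for mir-30a, 411 for mir-30c-2, 379 for mir-30b, 349 for mir-30c-1, 266 for mir-30d and 109 for mir-30e. On that scale mir-30c-2 came before mir-30b, and the counts of libraries for each neighbouring pair were the same as without length.

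The make-up of the family differed between the replicate tables more than between the crosses. Hairpins mir-30a, mir-30d and mir-30e together were 40.7% and 37.3% of the family sum in replicate 1 of the original and extra cross, and 59.3% and 71.4% in replicate 2. As a ratio, the sum of mir-30a, mir-30d and mir-30e over the sum of mir-30b and the mir-30c copies was 0.688 and 0.595 in replicate 1 and 1.46 and 2.49 in replicate 2. Both replicate 2 libraries were above both replicate 1 libraries. The ratio was 2.12-fold higher in replicate 2 than in replicate 1 of the original cross and 4.18-fold higher in the extra cross, while the extra cross stood at 0.866 times the original cross in replicate 1 and 1.71 times in replicate 2. A ratio within a library does not depend on how the library is scaled.

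Each genomic pair had the same order of libraries, with the higher ratios in replicate 2. On chromosome 1 mir-30a stood at 1.38 and 1.18 times mir-30c-2 in replicate 1 of the original and extra cross, and at 3.26 and 6.14 times in replicate 2. On chromosome 15 mir-30d stood at 0.386 and 0.36 times mir-30b in replicate 1, and at 0.851 and 1.03 times in replicate 2. On chromosome 4 mir-30e stood at 0.204 and 0.181 times mir-30c-1, and at 0.427 and 0.797 times. Reads of the mir-30c copies on chromosomes 1 and 4 are shared between them.

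Within the group of mir-30a, mir-30d and mir-30e the proportions varied less between libraries. Hairpin mir-30a stood at 7.26 to 8.21 times mir-30e in all 4 libraries, and at 2.79 to 4.24 times mir-30d. Profiles were compared as log2(RPM + 1) centred on the mean of each hairpin over the 4 libraries. The root mean square distance between hairpins of the same sequence group was 0.057 to 0.31 over 6 pairs, and between hairpins of different groups 0.62 to 0.97 over 9 pairs. These distances rest on 4 libraries and, for the mir-30c copies, on shared reads. The mature sequences of mir-30a and mir-30e differ by 1 base in either arm. How reads that match more than 1 hairpin were treated is not given, so their values may not be independent.

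**Figure D2:**
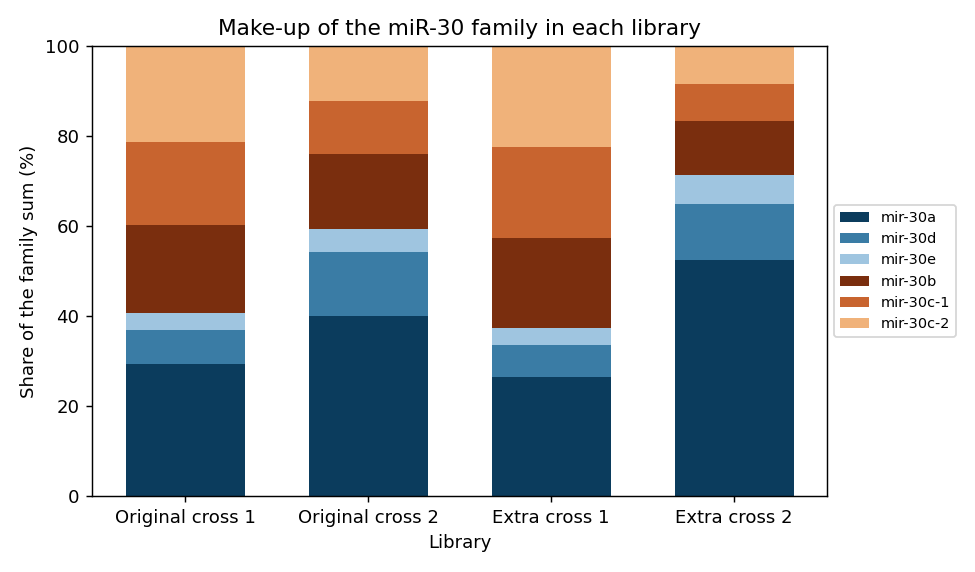
Share of each hairpin in the family sum (%, stacked to 100) in the 4 libraries, with mir-30a, mir-30d and mir-30e in blues and mir-30b and the mir-30c copies in browns. The blue part is 40.7% and 37.3% in original-cross and extra-cross replicate 1, and 59.3% and 71.4% in replicate 2.

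Most hairpins were lower in replicate 2, and mir-30a, mir-30d and mir-30e were not. Of the 206 tested hairpins, 169 (82%) were lower in the replicate 2 library of both crosses, as were mir-30b, mir-30c-1 and mir-30c-2, and 14 (6.8%) were higher in both, as were mir-30a (1.25-fold in the original and 1.95-fold in the extra cross), mir-30d (1.74-fold and 1.67-fold) and mir-30e (1.22-fold and 1.72-fold). The other 11 comprised mir-30f, the 4 let-7 hairpins let-7f-1, let-7f-2, let-7g and let-7i, mir-19b-1 and its copy mir-19b-2, mir-143, mir-455, mir-690 and mir-1983, named after their values were seen. Among all 760 tested features 27.4% were higher and 51.1% lower in both replicate 2 libraries.

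Directions between the replicates depend on the scale. The summed miRNA class stood in replicate 2 at 0.425 and 0.318 times its replicate 1 level in the original and extra cross. The mir-30c copies together stood at 0.553 and 0.382 times as deposited, but at 1.30 and 1.20 times relative to the class, and mir-30b at 0.788 and 0.587 times as deposited but at 1.85 times relative to the class in either cross. Hairpins mir-30a, mir-30d and mir-30e were higher in replicate 2 on both scales, at 2.87 to 6.13 times relative to the class. They were also higher under median-ratio scaling and under scaling to the sum of the 5 small RNA classes, and under these mir-30b and the mir-30c copies were lower. Of all tested hairpins, 80.6% and 76.2% were lower in replicate 2 of both crosses under these scalings. Relative to the class 21.4% were, and 0 of the 6 members. The share of hairpins higher in both was counted as deposited only.

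The blood microRNAs had lower RPM in the replicate 2 libraries, as had 82% of tested hairpins. The 7 measured blood microRNAs (of 8 listed) summed to 6101 and 10703 RPM in replicate 1 of the original and extra cross and to 1048 and 918 RPM in replicate 2, with mir-150 of lymphocytes at 3633 and 3483 against 571 and 388 RPM, and mir-451a of red cells at 251 and 918 against 42.1 and 55.5 RPM. The duplicate hairpins mir-486a and mir-486b were at 841 and 2790 RPM in replicate 1 and at 108 and 101 RPM in replicate 2. Hairpin mir-142b was at 419 and 484 RPM in replicate 1, and at 181 and 218 RPM in replicate 2. As a share of the miRNA class 5 of the 7 were lower in replicate 2 of both crosses, with 21.4% of tested hairpins. The exceptions were mir-142b, at 0.152% and 0.11% in replicate 1 and 0.155% in both replicate 2 libraries, and mir-223 of myeloid cells, at 0.0206% and 0.00756% in replicate 1 and 0.0239% and 0.0183% in replicate 2. None of the measured blood microRNAs was at 0. In bulk RNA, fewer cells of a type and less RNA per cell cannot be told apart, and the part of blood RNA in the miR-30 values was not tested.

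The hairpins outside the family with the most similar profiles differed between the sequence groups. For the mean of all 6 hairpins they were mir-221 (distance 0.11), mir-26b (0.17), and mir-136 and mir-3071 (both 0.17, with identical values), among 199 hairpins and over 4 libraries. Hairpin mir-221 was at 45.8 and 46.0 RPM in original-cross mice and at 58.4 and 45.9 RPM in extra-cross mice. This mean joins opposite profiles, so the groups were also compared singly, a choice made after the values were seen. The nearest to mir-30a, mir-30d and mir-30e was let-7i (distance 0.12), at 223 and 314 RPM in original-cross and 248 and 403 RPM in extra-cross mice, followed by let-7g (0.19) and let-7f-1 (0.28). The nearest to mir-30b and the mir-30c copies was mir-195a (0.031), at 123 and 79.7 RPM in original-cross and 173 and 73.0 RPM in extra-cross mice, followed by mir-126b (0.092) and mir-126a (0.12), the latter known from endothelium.

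**Figure D3:**
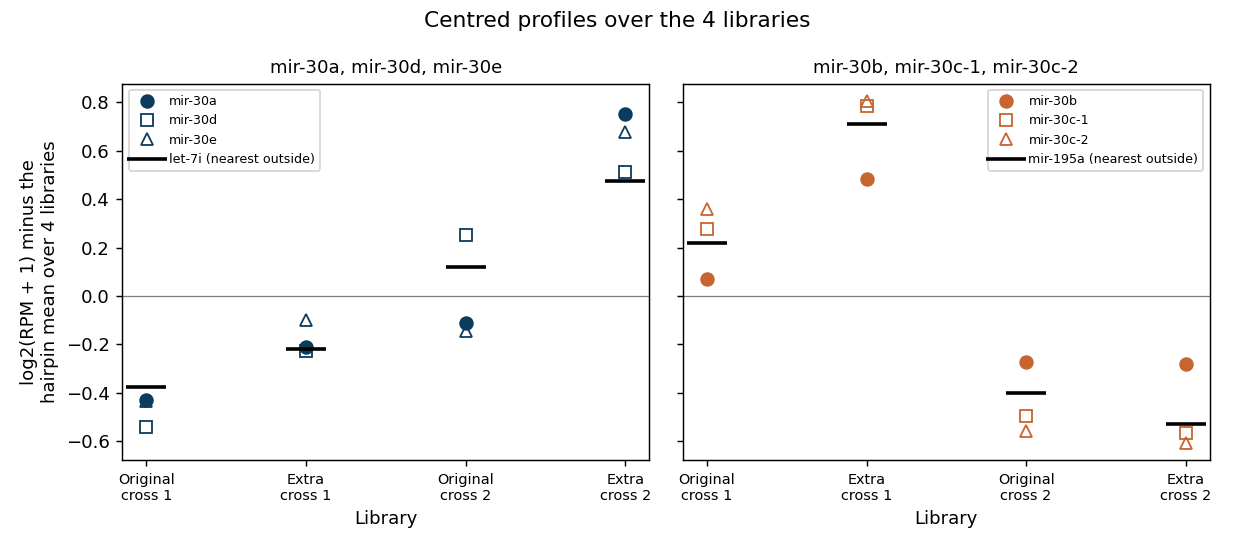
Centred profiles, log2(RPM + 1) minus the mean of each hairpin over the 4 libraries, for mir-30a, mir-30d and mir-30e (left) and mir-30b, mir-30c-1 and mir-30c-2 (right). Black bars mark the nearest hairpin outside the family, let-7i on the left (distance 0.12) and mir-195a on the right (distance 0.031).

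Between the crosses, the family sum was the higher in extra-cross mice of either table. It was 1904 and 1748 RPM in original-cross mice (mean 1826 ± 110, SD, n = 2) and 2468 and 2418 RPM in extra-cross mice (2443 ± 35.3, SD, n = 2), which is 1.30-fold and 1.38-fold within replicates 1 and 2. The extra-cross libraries lay above both original-cross libraries. The small spread of the sum does not hold for its parts, which went in opposite directions between the replicates. Hairpins mir-30a, mir-30d and mir-30e summed to 776 and 1036 RPM in original-cross and 921 and 1726 RPM in extra-cross mice. For mir-30b and the mir-30c copies the sums were 1128 and 712 RPM against 1547 and 693 RPM. Relative to the class the order was not kept. As a share of the miRNA class the family was 0.69% and 1.49% in the original cross and 0.559% and 1.72% in the extra cross, lower in the extra cross of replicate 1 and higher in that of replicate 2. The mean shares were 1.09% ± 0.57 and 1.14% ± 0.82 (SD, n = 2), a difference well inside the spread. With 2 libraries against 2 an exact two-sided permutation test cannot go below p = 0.333, and none was run on the sum.

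No hairpin of the family passed the test between the crosses. In limma over 760 small RNA features with cross type as the only term, 0 of the 6 passed at an adjusted p of 0.05, and unadjusted p-values were under 0.05 in 0 of them. Of all 760 features (hairpins alike) 0% passed. Under an unadjusted 0.05 were 112 of the features, and 6 of the 206 hairpins. The log2 fold changes (extra over original, on the log2(RPM + 1) scale) were 0.54 ± 0.59 (SE) for mir-30a, 0.58 ± 0.50 for mir-30e and 0.29 ± 0.57 for mir-30d. They were 0.20 ± 0.55 for mir-30b, 0.22 ± 0.68 for mir-30c-1 and 0.20 ± 0.71 for mir-30c-2, and the limma adjusted p was 0.995 for each of the 6. Only the estimate of mir-30e was larger than its standard error.

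The median of the 6 was 0.25, beside 0.20 over all 206 tested hairpins and -0.12 over all 760 features. Of all tested hairpins 64.1% had a positive log2 fold change, and of all features 41.6%. All 6 were positive as deposited and under median-ratio scaling, where the median was 0.57 and that of all features moved from -0.12 to 0.19. With each library divided by its miRNA total, and that class fitted alone, the median was -0.21 and only mir-30a (0.07) and mir-30e (0.12) stayed positive. The median of all 206 hairpins in that fit was -0.27, so the 6 moved with the hairpins as a whole. Shares of positive hairpins under the 2 other scalings named here are not given.

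Within the tables, mir-30a, mir-30d and mir-30e were higher in the extra cross of both, 3 of 6 hairpins, where 42.7% of all tested hairpins and 19.9% of all tested features were. None of the 6 was lower in both, where 23.3% of hairpins and 46.3% of features were. These counts depend on the scale. Under median-ratio scaling 6 of 6 were higher in both (68% of hairpins), and under scaling to the 5 classes 2 were, since mir-30a stood at 0.965 times in replicate 1 (33.5% of hairpins). Relative to the miRNA class 0 of 6 were higher in both (20.9% of hairpins), and mir-30b, mir-30c-1 and mir-30c-2 were lower in both (45.1% of hairpins). The ratios and intervals that follow are for RPM as deposited. Hairpin mir-30a was 1.16-fold higher in replicate 1 (95% interval 1.03 to 1.32, from the reads alone) and 1.82-fold in replicate 2 (1.71 to 1.94). Hairpin mir-30e was 1.26-fold higher in replicate 1 (0.897 to 1.81, on 45 and 140 reads) and 1.78-fold in replicate 2 (1.49 to 2.13). For mir-30d the ratios were 1.25 (0.98 to 1.60) and 1.20 (1.07 to 1.34). In replicate 1, therefore, the differences of mir-30d and mir-30e were not detectable at this depth.

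In the other sequence group the intervals lay above 1 in replicate 1 and included 1 in replicate 2, and the difference between the tables was not tested. Relative to the miRNA class the replicate 1 ratios lay below 1, at 0.832 for mir-30b and 0.869 for the mir-30c sum, as did those of mir-30a (0.726), mir-30d (0.778) and mir-30e (0.79). Hairpin mir-30b was 1.33-fold higher in the extra cross of replicate 1 (1.15 to 1.55) and stood at 0.992 times the original cross in replicate 2 (0.895 to 1.101). The sum of the mir-30c copies was 1.39-fold higher in replicate 1 (1.25 to 1.54) and at 0.96 times in replicate 2 (0.88 to 1.05). These exact binomial intervals cover counting error only, since reads amplified by PCR are not independent molecules, and with 1 mouse behind each library they do not cover differences between mice.

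**Figure D4:**
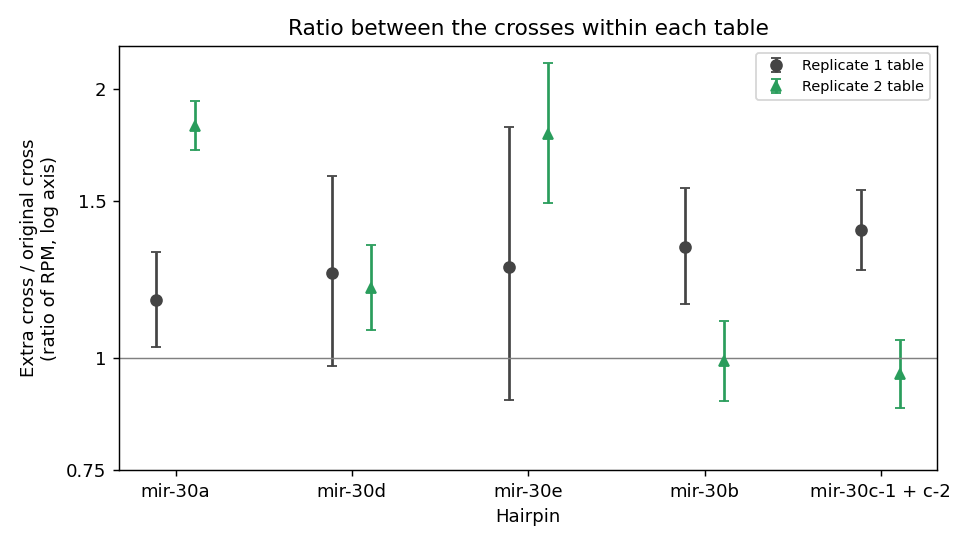
Ratio of RPM in the extra cross over the original cross (log axis) within the replicate 1 table (circles) and the replicate 2 table (triangles), with 95% exact intervals for counting error. As deposited, all 5 ratios of replicate 1 lie above 1, from 1.16 to 1.39 (relative to the miRNA class, which is not drawn, they are 0.726 to 0.869), and in replicate 2 mir-30a and mir-30e lie at 1.82 and 1.78 while mir-30b and the summed mir-30c copies lie at 0.992 and 0.96.

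MicroRNAs known from epithelial and stromal cells had fold changes of opposite sign between the crosses. The 5 of 5 epididymal epithelium microRNAs had sums of 4394 and 2055 RPM in original-cross mice and of 10408 and 5315 RPM in extra-cross mice, all with a positive log2 fold change (median 1.00) and 0 past the test, with mir-141 at 1.71 ± 0.71 (SE, limma adjusted p = 0.398). The most abundant after it, mir-429, mir-200a and mir-200b, had log2 fold changes of 1.20, 1.00 and 0.53. The 6 of 6 smooth muscle and stroma microRNAs had sums of 8547 and 6264 RPM in original-cross and of 3382 and 5078 RPM in extra-cross mice, all negative (median -0.61) and 0 past the test, with mir-199a-1 and mir-199a-2 at -1.52, mir-143 at -0.40 and mir-145a at -0.36. Of all tested hairpins 64.1% were positive, and mir-199a-1 and mir-199a-2 had nearly the same values. Within the tables, 4 of the 5 were higher in the extra cross of both (42.7% of all tested hairpins were), but mir-200b went from 448 to 438 RPM in replicate 2. Of the 6, 5 were lower in both (23.3% of all tested hairpins were), but mir-143 went from 1867 to 2162 RPM in replicate 2. The 5 epithelial log2 fold changes stayed positive and the 6 stromal ones negative under median-ratio scaling, scaling to the 5 classes and the miRNA class alone. The 64.1% is for values as deposited, and such shares under the other scalings are not given. None of either list was at 0 in any library, and their part in the miR-30 values was not tested. The blood list had a median of 0.82, with 5 of 7 positive beside 64.1% of all tested hairpins and 0 past the test, and 4 to 6 positive under the other scalings. Of the spermatogenic list, 4 of 5 were measured and 2 tested (mir-34c at 0.29 and mir-34b at 0.54, 0 past the test), with sums of 1923 and 749 against 1813 and 1205 RPM and with mir-449a and mir-449c at 4.74 RPM or less. Hairpin mir-34c turned negative with the miRNA class alone.

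Beside miR-30a and miR-30c, the list of microRNAs reported in sperm of stressed fathers held 7 others, of which 6 were measured and tested. Of these 5 had a positive log2 fold change, beside 64.1% of all tested hairpins, and 0 passed (median 0.56, and 4 to 6 positive under the other scalings), and 3 were higher and 1 lower in the extra cross of both tables. The most abundant were mir-204 (log2 fold change 0.58), mir-375 of endocrine and epithelial cells (-0.32), mir-29c (1.26) and mir-193a (0.54). For mir-193a, original-cross mice gave 428 and 78.0 RPM and extra-cross mice 328 and 217 RPM.

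Of the genes that make and use microRNAs, fragments in the RefSeq class were too few to describe. Of 10 such genes 9 were listed, 0 reached a mean of 10 RPM, and the most abundant, Dicer1, stood at 0.121 and 2.81 RPM in original-cross mice and 7.70 and 6.42 RPM in extra-cross mice. The host gene Nfyc stood at 0.963 RPM or less in every library, beside 71.1 to 155 RPM for its intronic mir-30e. The RefSeq class of original-cross replicate 1 summed to 7926 RPM against 131739 to 155300 RPM in the other libraries. In that library Drosha, Dicer1 and Xpo5 stood at 0.0603, 0.121 and 0.181 RPM, at or near whole multiples of the first. The value of 1 read in its miRNA class was 1.58 RPM. Its RefSeq class may therefore be on another scale, and its RefSeq values are not set against those of the other libraries.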

How the data were processed

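Small RNA of cauda sperm was sequenced from 4 mice, 2 per cross. Per the labels' protocols, Trizol was used for RNA, a gel for size selection and Illumina's TruSeq kit for small RNA libraries. Named in the submitters' processing notes, without role or order, are mm10, Bowtie 1.1.2 and CASAVA 1.8.2. The authors deposited RPM values in 2 tables, 1 per replicate number. The sources used here do not give the feature annotation, strand handling or treatment of multiply matching reads. A feature absent from a table was set to 0 there.

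As the value of 1 read, the most frequent non-zero value among hairpins was used. Of hairpin values up to 20 reads, 66.4% to 68.7% lay within 0.02 of a whole read, so no count model was run, and the test planned for RPM was used. limma 3.58.1 (R 4.3.3) was fitted with a variance trend to log2(RPM + 1) of 760 small RNA features (tRNA, miRNA, piRNA, rRNA, repeats) with a mean of at least 10 RPM, with Benjamini-Hochberg adjustment over all of them. Fold changes on this scale understate those of low features. All 6 hairpins passed the minimum. The fit was tested on simulated data with libraries drawn independently, so that test does not cover a difference shared by the replicate tables. p-values measure the spread between the libraries of a cross, 1 mouse each. That spread also holds any difference between the replicate tables, which cannot be told apart from differences between mice. RefSeq transcripts were matched to symbols for 81.7%.

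Members and lists (blood, epididymal epithelium, smooth muscle and stroma, spermatogenic and stressed-father microRNAs, sperm transcripts and microRNA processing genes) were chosen with earlier results of these data known. Named are the 6 hairpins, hairpins that share a seed, the 4 with the nearest profile, and up to 4 of the most abundant members of each list. Alternatives were other scalings, pseudocounts and minimums, no variance trend, a replicate block, the mir-30c copies as 1 feature, and each library left out.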

Additional observations from a re-analysis of the deposited data

How the results depend on the processing

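No miR-30 hairpin passed the threshold under any of the 14 alternatives. The limma adjusted p ranged from 0.14 (mir-30a with a replicate block) to 0.999. With a replicate block 171 of 760 features passed, 135 of them lower, and none was a miR-30 hairpin. Unadjusted limma p-values were then under 0.05 for 214 features, and for mir-30a alone among the 6 hairpins. Without the block they were under 0.05 for 112 features and for 0 of these 6. The replicate numbers are not known to pair mice. Deviations from the cross means correlated between same-numbered libraries with r = 0.87 across 760 features and r = 0.64 across the 206 hairpins. Features are not independent replicates, and each deviation is 1 difference between 2 libraries. The median of the 6 hairpins, 0.25, was 0.57 under median-ratio scaling and -0.21 with the miRNA class scaled and fitted on its own, where mir-30b (-0.27), mir-30c-1 (-0.25), mir-30c-2 (-0.27) and mir-30d (-0.18) turned negative. The median of all 206 hairpins was -0.27 in that setting. That setting divides out the higher class total of the extra cross. Leaving out each library in turn, the median ranged from 0.24 to 0.41, mir-30a from 0.06 to 1.02, mir-30e from 0.19 to 0.97, mir-30b from -0.18 to 0.58, mir-30c-1 from -0.46 to 0.89, mir-30c-2 from -0.51 to 0.91 and mir-30d from -0.11 to 0.68. The difference in the share of the class, 0.05 percentage points, ranged from -0.53 to 0.63, and was 0.38 with mir-10a and mir-10b left out of the class. With 1 library left out, the lone library of a cross is assumed to vary like the others, and its value then also holds the difference between tables. The mir-30c copies counted as 1 feature by their sum, and the share without mir-10, were chosen after seeing the data. Depth limits mir-30e most, at 45 reads in original-cross replicate 1.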
